A study of Homo sapiens with 6 samples.

Results

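The matrix metalloproteinases (MMPs), the ADAM and ADAMTS proteinases and the tissue inhibitors of metalloproteinases (TIMPs) were compared between untreated NCI-H295A cells and cells given 1 mM 8-Br-cAMP over 18 h. The members were the 52 genes whose probe sets carry 1 symbol in the platform annotation, that symbol being MMP, ADAM or ADAMTS followed by a number, or TIMP1 to TIMP4. They were 52 of 11963 genes with such a probe set, and comprised 21 MMP, 17 ADAM, 10 ADAMTS and 4 TIMP genes on 87 probe sets. Each gene was read from the probe set with the highest mean log2 signal over the 6 arrays. A probe set listed for both MMP23A and MMP23B and a probe set listed for ADAM29 and a second gene were not used, because they carry several symbols.

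MMPs are zinc endopeptidases that cut collagens, laminins, proteoglycans and other matrix proteins, and most are made as inactive precursors. Some MMPs are secreted, while the membrane-type ones are held at the cell surface by a transmembrane segment or, for MMP17 and MMP25, by a lipid anchor. ADAMs are membrane proteins, several of which release the outer parts of growth factors, cytokine receptors and adhesion molecules, and ADAMTSs are their secreted relatives, which process procollagen and proteoglycans. TIMPs bind the active sites of these enzymes and block them. In the adrenal cortex, ACTH acts through cAMP, and MMPs are studied in adrenocortical carcinoma for their part in invasion.

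NCI-H295A is an established human adrenocortical carcinoma line that makes steroids, and 8-Br-cAMP is a cAMP analogue that enters cells. There were 3 control arrays and 3 8-Br-cAMP arrays, numbered 1 to 3 in each group, and both groups were grown in the same RPMI medium with selenium, insulin, gentamicin and fetal calf serum. The sample titles call the treatment cAMP, and the design text calls it 8-Br-cAMP. The growth protocol speaks of 3 plates, and the design text's selection of transcripts refers to 3 separate experiments. No label ties an array to a plate or an experiment, so the spread behind the p-values may be partly technical. Values are array signals on a linear scale or log2 of them, and differences are log2 signal after 8-Br-cAMP minus log2 signal in controls, so 1 means a doubling. The number of arrays limits the precision. Fewer cells with a transcript and less of it per cell cannot be told apart in bulk RNA.

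The arrays numbered 1 stood apart in both groups. The 3'/5' signal ratio of the actin control probe sets, which rises as RNA is degraded, was 5.72 for control 1, 38.8 for 8-Br-cAMP 1 and between 1.93 and 2.41 elsewhere. Differences were therefore also read within each same-numbered pair and with both arrays numbered 1 left out. Limma without a block called 0 of 7927 genes at an adjusted p under 0.05, and 11.9% of genes had an unadjusted p under 0.05. A fit that adds the sample number as a replicate block (the paired fit) called 3.68% of genes. Of the 8 adrenocortical markers, such as NR5A1, STAR and CYP17A1, all 8 had a mean signal above the filter level of 45.5, below which a probe set was left out of the tests. None of the 4 chromaffin cell markers did, and 3 of 7 fibroblast, 2 of 5 endothelial, 2 of 5 leukocyte and 1 of 5 keratinising epithelial markers did. The summed fibroblast marker signal was 613 to 1289.5 in controls and 443 to 546.3 after 8-Br-cAMP. The mean signals of PDGFRA, PDGFRB, LUM and COL1A2 were below the filter level, though LUM alone was below it on every array. The largest part of that sum on every array was COL3A1, at 879.2, 393.9 and 417.3 in controls and 227.6, 194.6 and 198.6 after 8-Br-cAMP, while COL1A1 and DCN differed by -0.05 and -0.04. PDGFRA had signals of 129.3, 34.5 and 4.2 in controls and 3.2, 6.8 and 3.1 after 8-Br-cAMP. COL1A2 and LUM were higher on average after 8-Br-cAMP, LUM at signals of at most 8.5. The summed endothelial marker signal was 183.4 to 231.4 in controls and 304.7 to 419.4 after 8-Br-cAMP. The higher sum came mainly from VWF, at 13.2, 17.8 and 123.8 in controls and 292.3, 224.5 and 289.2 after 8-Br-cAMP. TEK went the other way, from 106, 60.7 and 68.1 to 11.3, 20.7 and 14.2, PECAM1 differed by -0.02, and CDH5 and KDR were below the filter level on every array. The part of these marker levels in the results was not tested.

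MMP17 and TIMP1 were the members that passed the paired fit, both higher after 8-Br-cAMP, and no member passed it as lower. MMP17, a lipid-anchored proteinase of the cell surface, was 8.88-fold higher (6.77-fold against the filter level in place of its low controls), and TIMP1, a secreted inhibitor of most MMPs, was 2.64-fold higher. MMP10, a secreted stromelysin, was higher after 8-Br-cAMP in pairs 2 and 3 but not in pair 1, and did not pass. The gelatinase genes MMP2 and MMP9, the membrane-type MMP14 and the sheddase genes ADAM10 and ADAM17 did not pass either.

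Of the 52 members, 27 had a mean log2 signal above the filter level of 5.51 and were tested, or 51.9%, against 66.3% of all genes. These were 10 MMP, 10 ADAM, 4 ADAMTS and 3 TIMP genes. Of the 27, 11 had a positive and 16 a negative difference, with a median of -0.07, beside a median of -0.14 over all 7927 tested genes. These signs depend on the scaling. Bringing the arrays to a common median raised every difference by the same amount. MMP7, MMP11, MMP25, ADAM9, ADAM20, ADAM23 and ADAMTS9 then turned positive, and so did both medians. The paired fit called 2 of 27 members (7.41%), beside 3.68% of all genes (1.73% higher and 1.96% lower), a difference of about 1 gene. Limma without a block called 0 members, with 4 of 27 at an unadjusted p under 0.05 (14.8%), beside 11.9% of all genes. The paired fit had 6 of 27 at an unadjusted p under 0.05 (22.2%), beside 22.4% of all genes. The study's own selection asked for a mean change of 2-fold and an unadjusted p under 0.05. In the fit without a block 3 of 27 members met it (MMP17, TIMP1 and MMP16), or 11.1%, beside 7.01% of all genes. The groups did not overlap for 5 of 27 members (MMP17, TIMP1, MMP16, ADAM22 and MMP9), or 18.5%, beside 19.9% of all genes. With both arrays numbered 1 left out, 9 of 27 members passed without a block, or 33.3%, beside 33.3% of all genes. Of those 9, 6 were higher (22.2%, beside 12.8% of all genes), namely MMP17, MMP10, TIMP1, ADAM9, ADAM10 and ADAM17. The 3 that were lower (11.1%, beside 20.5%) were MMP16, ADAM22 and ADAMTS3. Taken over both directions, the members were thus called at shares near those of all genes or about 1 gene from them. By direction, with both arrays numbered 1 left out, the shares differed from those of all genes. They rest on 6 and 3 members, too few to compare the directions.

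**Figure D1:**
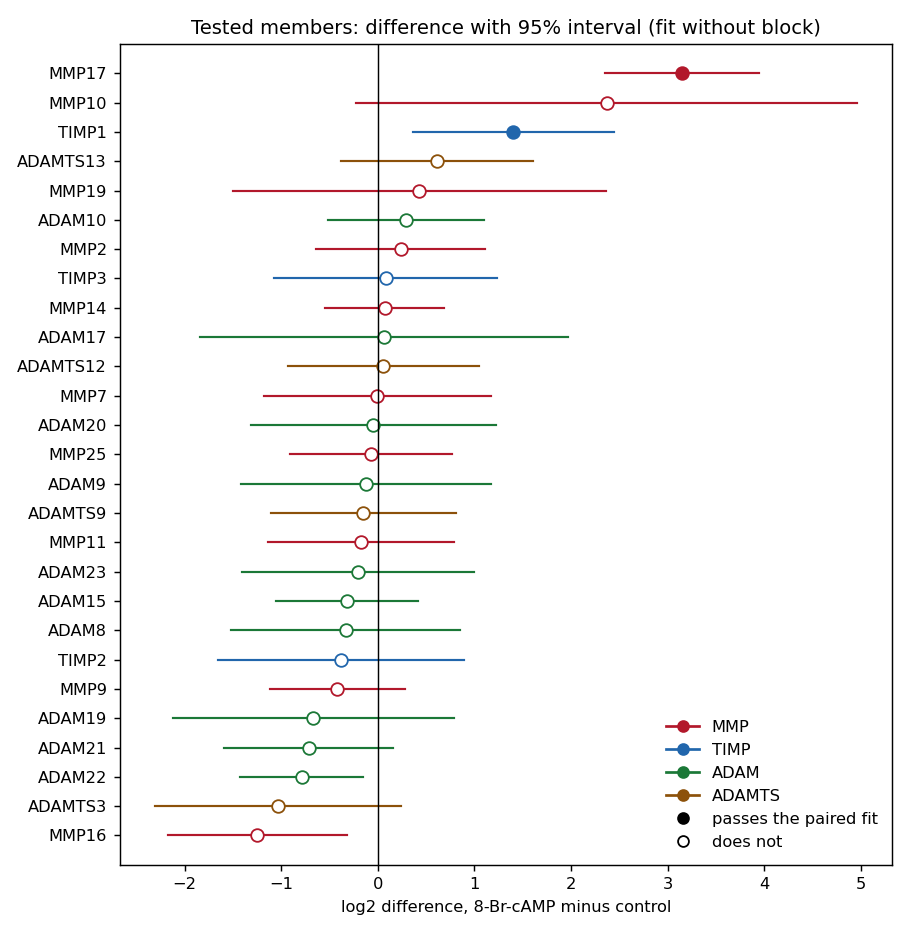
Log2 difference (8-Br-cAMP minus control, horizontal axis) of the 27 tested members, with the 95% interval of the fit without a block as a line and the colour giving the family. MMP17 lies at 3.15, MMP10 at 2.37 and TIMP1 at 1.40, and the filled points (MMP17 and TIMP1) are those that pass the paired fit.

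Among the membrane-type MMPs, MMP17 was the one that rose in the paired fit. Its signal was 48.8, 25.6 and 33.5 on controls 1 to 3 and 377.6, 276.3 and 280.6 on 8-Br-cAMP 1 to 3 (probe set 206234_s_at). All 8-Br-cAMP arrays lay above all controls, and the controls lay around or below the filter level. The mean log2 signal was 5.12 ± 0.47 (SD, n = 3) in controls and 8.27 ± 0.25 (SD, n = 3) after 8-Br-cAMP. The difference was 3.15, with a 95% interval of 2.35 to 3.95 without a block (limma adjusted p = 0.0511) and a limma adjusted p of 0.00879 in the paired fit. It was similar in the pairs, at 2.95, 3.43 and 3.07 in pairs 1, 2 and 3. A fold from a control signal this low is imprecise. Measured against the filter level in place of the controls, the 8-Br-cAMP mean was 6.77-fold higher. The paired call held in the 6 alternatives run with all 3 pairs, with an adjusted p of 0.00549 to 0.0356. Without a block MMP17 passed in 8 of 14 alternatives, with an adjusted p of 1.03e-04 to 0.378. At the 60th percentile filter it was not tested. Since the control mean was below the filter level, MMP17 passed the filter through the 8-Br-cAMP arrays.

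The other membrane-type MMPs did not pass. MMP16, whose product has a transmembrane segment, had signals of 58.3, 99.5 and 67.4 in controls and 34.5, 31.6 and 26.8 after 8-Br-cAMP. The groups did not overlap, all 3 pairs were negative (-0.76, -1.66 and -1.33), and all 8-Br-cAMP signals were below the filter level. The difference was -1.25 (95% interval -2.18 to -0.32, limma adjusted p = 0.299 without a block and 0.162 paired), and MMP16 was lower with both arrays numbered 1 left out (-1.49, adjusted p = 0.0307). MMP16 passed the filter through the controls, which are among the arrays that these tests use. Its other 3 probe sets were left out by the filter and differed by -0.68, 0.06 and -1.80. MMP14, which activates the MMP2 precursor at the cell surface, differed by 0.07 (95% interval -0.54 to 0.68, limma adjusted p = 0.957), with signals of 139.4, 127.4 and 180.5 in controls and 146.2, 168.5 and 150.9 after 8-Br-cAMP. The groups overlapped. Its other 3 probe sets had signals of at most 45.3 and were left out by the filter, so its level rests on 160020_at alone. MMP15 and MMP24 were below the filter level.

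**Figure D2:**
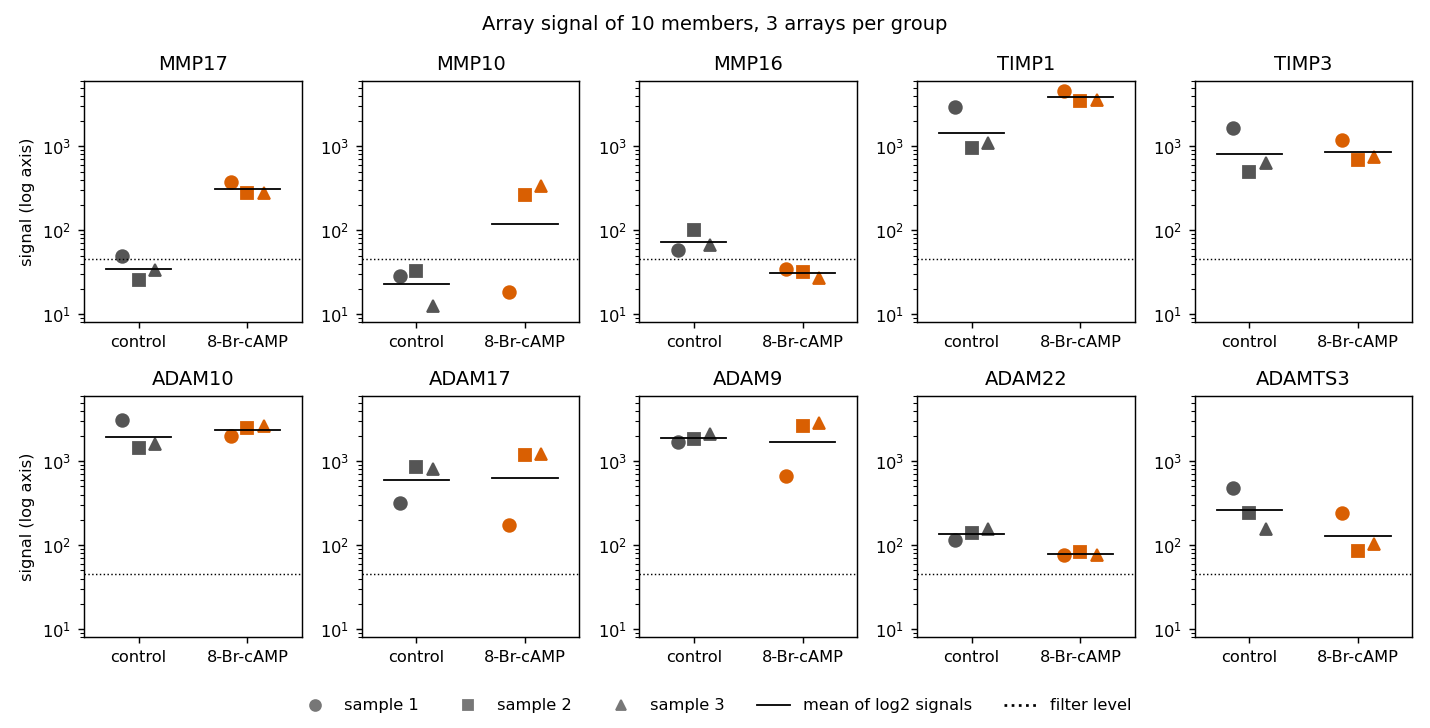
Signal (log axis) of 10 members on each array, with controls in grey, 8-Br-cAMP in orange, and symbols giving the sample number. The horizontal line is the mean of log2 signals and the dotted line the filter level of 45.5. MMP17, TIMP1, MMP16 and ADAM22 have no overlap between groups, while MMP10, ADAM17 and ADAM9 have 8-Br-cAMP 1 far below 8-Br-cAMP 2 and 3.

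MMP10 showed the widest split between the pairs. Its signal was 28.7, 32.8 and 12.5 in controls, and 18.3, 263.1 and 337.3 on 8-Br-cAMP 1, 2 and 3. On 8-Br-cAMP 2 and 3 it was thus well above every control, and on 8-Br-cAMP 1 it was within their range. The difference was -0.65 in pair 1, 3.00 in pair 2 and 4.75 in pair 3. Every control was below the filter level, so no fold against the controls is given. 8-Br-cAMP 2 and 3 were 5.78-fold and 7.41-fold above that level. Over all pairs it was 2.37 (95% interval -0.23 to 4.96, limma adjusted p = 0.499 without a block and 0.221 paired). Leaving out 8-Br-cAMP 1 gave 3.71 (adjusted p = 0.0302) and leaving out both arrays numbered 1 gave 3.88 (adjusted p = 6.06e-04). Like MMP17, MMP10 passed the filter through 8-Br-cAMP arrays, here numbers 2 and 3, which are the arrays that these tests use. These p-values also rest on pairs of closely alike arrays (r = 0.961 between controls 2 and 3 and 0.980 between 8-Br-cAMP 2 and 3 across tested probe sets), and the 3'/5' actin ratio was 38.8 on 8-Br-cAMP 1. The part of RNA quality in this split was not tested.

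MMP10 is the middle gene of a run of 9 MMP genes on chromosome 11, in the order MMP7, MMP20, MMP27, MMP8, MMP10, MMP1, MMP3, MMP12 and MMP13, with no other protein-coding gene between them in RefSeq's annotation of GRCh38.p14. All 9 are members, and MMP7 and MMP10 were the 2 of them above the filter level. MMP7, the matrilysin gene at the edge of the run, had signals of 82.5, 77.5 and 32.9 in controls and 89.1, 51.3 and 45.7 after 8-Br-cAMP, with a difference of -0.003 (95% interval -1.17 to 1.17, limma adjusted p = 0.999). MMP1, the interstitial collagenase gene next to MMP10, was below the filter level on every array. Its signal was 10.9, 1.6 and 6.9 in controls and 11.7, 35.9 and 29 on 8-Br-cAMP 1, 2 and 3. As for MMP10, arrays 2 and 3 after 8-Br-cAMP were the highest, but at such signals no fold is given.

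RefSeq promoter sequences (GRCh38.p14) were matched by symbol to 30 of the 52 members, 18 of them tested. MMP17 was not matched. The 250 bases before the start are shown for TIMP1 and MMP10, as the matched members with the largest positive differences among those tested, and for MMP7, as the other tested gene of the run that holds MMP10. They lie at chrX:47582186-47582435 on the plus strand for TIMP1, and on the minus strand at chr11:102780629-102780878 for MMP10 and chr11:102530748-102530997 for MMP7. Capitals mark the short CRE motif TGACG, the AP-1 motif TGAGTCA and the TATA motif TATAAA, each searched on both strands.
TIMP1: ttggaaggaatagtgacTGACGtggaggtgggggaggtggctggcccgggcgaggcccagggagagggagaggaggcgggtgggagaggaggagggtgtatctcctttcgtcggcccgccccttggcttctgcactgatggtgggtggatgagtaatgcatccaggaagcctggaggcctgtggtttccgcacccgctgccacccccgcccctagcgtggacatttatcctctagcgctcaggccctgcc
MMP10: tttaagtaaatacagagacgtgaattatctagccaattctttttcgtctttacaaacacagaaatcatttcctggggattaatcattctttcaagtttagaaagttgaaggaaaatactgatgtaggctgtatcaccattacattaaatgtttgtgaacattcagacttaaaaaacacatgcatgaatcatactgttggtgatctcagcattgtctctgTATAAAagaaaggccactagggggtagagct
MMP7: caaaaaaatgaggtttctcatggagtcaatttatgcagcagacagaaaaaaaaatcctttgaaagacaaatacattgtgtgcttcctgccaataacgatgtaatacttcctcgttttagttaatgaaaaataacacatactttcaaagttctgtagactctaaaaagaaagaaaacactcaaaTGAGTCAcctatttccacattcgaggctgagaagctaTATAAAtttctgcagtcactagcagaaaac

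In these windows the short CRE motif of TIMP1 begins 233 bases before the start, and the AP-1 motif of MMP7 67 bases before it. The TATA motif begins 31 bases before the start in MMP10 and 30 bases in MMP7. The full CRE, TGACGTCA, which holds the short motif, was in 0 of the 30 members' windows and in 1.65% of all 35116. The short motif was in 6 of 30 (TIMP1, ADAM10, ADAM17, ADAMTS3, ADAMTS6 and MMP15), beside 21.2% of all windows. The AP-1 motif was in MMP7 alone of the 30, beside 4.20% of all windows, and the TATA motif in 5 of 30, beside 10.7%. The short NR4A motif AAGGTCA was in 0 of 30, beside 3.44%. A match describes letters in a window and shows no binding.

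TIMP1 was the TIMP gene that changed. Its signal was 2946.2, 954.3 and 1090 in controls and 4580, 3428.1 and 3607 after 8-Br-cAMP (probe set 201666_at), and all 8-Br-cAMP arrays lay above all controls. The mean log2 signal was 10.50 ± 0.89 (SD, n = 3) in controls and 11.91 ± 0.22 (SD, n = 3) after 8-Br-cAMP. Control 1 was high and made the rise smaller in pair 1 (0.64) than in pairs 2 and 3 (1.84 and 1.73). The difference was 1.40 (95% interval 0.37 to 2.44), at a limma adjusted p of 0.298 without a block and 0.0485 in the paired fit. That call lies near the threshold. It was lost with quantile normalization (1.25, adjusted p = 0.0780), with a common median (1.63, adjusted p = 0.0913), without an intensity trend (1.40, adjusted p = 0.1003) and when pair 2 or 3 was left out (1.18 and 1.24, adjusted p = 0.0794 and 0.0869). The TIMP1 gene lies on chromosome X within the span of SYN1.

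The other TIMP genes did not pass. TIMP3, which stays bound to the matrix and inhibits ADAM17 as well as MMPs, had signals of 1667.3, 490.4 and 627.6 in controls and 1183.5, 692.2 and 743.3 after 8-Br-cAMP. The number 1 array was the highest of each group, and the groups overlapped. The difference was 0.08 (95% interval -1.07 to 1.24, limma adjusted p = 0.978), while its other 3 probe sets differed by -0.63, -0.06 and -0.13. TIMP2, which also takes part in MMP2 activation at the cell surface, had signals of 183.2, 83.3 and 57.7 in controls and 126.1, 60.2 and 52.1 after 8-Br-cAMP. Its groups overlapped, and the difference was -0.38 (95% interval -1.66 to 0.89, limma adjusted p = 0.873). TIMP4 was below the filter level on every array, with signals of 1.8 to 27.

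The gelatinase genes did not pass. MMP2, which cuts denatured collagen and basement membrane collagen, had signals of 63.6, 80.3 and 52.1 in controls and 107.6, 66.9 and 60.7 after 8-Br-cAMP, with overlapping groups. The difference was 0.24 (95% interval -0.64 to 1.11, limma adjusted p = 0.889). MMP9, the other gelatinase, had signals of 93.9, 106.6 and 85.7 in controls and 84.6, 62.8 and 67.1 after 8-Br-cAMP. The groups did not overlap, by 84.6 against 85.7, and the difference was -0.42 (95% interval -1.12 to 0.28, limma adjusted p = 0.686 without a block and 0.477 paired).

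The sheddase genes ADAM10, ADAM17 and ADAM9 were higher in pairs 2 and 3 and lower in pair 1. ADAM10, whose product releases Notch receptors and cadherins among others, had signals of 3124.6, 1420.8 and 1593.2 in controls and 2006.5, 2461.4 and 2617.1 after 8-Br-cAMP. ADAM17, whose product releases TNF and EGF receptor ligands, had signals of 318.6, 844.4 and 815.5 in controls and 171.8, 1196.1 and 1219.8 after 8-Br-cAMP. ADAM9, the gene of a related sheddase, had signals of 1688.6, 1822 and 2112.5 in controls and 669.8, 2633 and 2851.8 after 8-Br-cAMP. For each of the 3 genes, arrays 2 and 3 after 8-Br-cAMP were above controls 2 and 3, and 8-Br-cAMP 1 was below control 1.

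The pair differences were -0.64, 0.79 and 0.72 for ADAM10, -0.89, 0.50 and 0.58 for ADAM17, and -1.33, 0.53 and 0.43 for ADAM9. Over all pairs the differences were 0.29 (95% interval -0.52 to 1.10), 0.06 (-1.84 to 1.96) and -0.12 (-1.42 to 1.17, positive at 0.10 with a common median). Their limma adjusted p ran from 0.844 to 0.990 without a block and from 0.635 to 0.936 paired. With both arrays numbered 1 left out they were higher by 0.75, 0.54 and 0.48 (limma adjusted p = 0.00154, 0.00610 and 0.0142). That result again rests on arrays that are closely alike within each group, and the median over all genes was then -0.18.

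In ADAM10 and ADAM17 the tested probe sets of a gene parted most in pair 1. In ADAM10, the pair 1 difference was -0.64, 0.43 and -2.12 on the 3 probe sets, while pairs 2 and 3 lay between 0.30 and 0.79 on all 3. In ADAM17, the pair 1 difference was -0.89, 0.38 and -2.83, and pairs 2 and 3 lay between 0.04 and 0.65. The ADAM17 probe set 205746_s_at read 47.5 on control 1 and 6.7 on 8-Br-cAMP 1, and 247.6 to 300.2 on the other 4 arrays. The 3'/5' actin ratio of 5.72 and 38.8 on the same 2 arrays moved with these readings, and its part in them was not tested. TIMP3 and ADAM22 also parted most in pair 1 (by 1.62 and 1.40, the latter close to 1.34 in pair 2), but ADAM19 and MMP25 parted most in pair 3 (by 2.08 and 0.85, against 0.49 and 0.23 in pair 1).

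**Figure D3:**
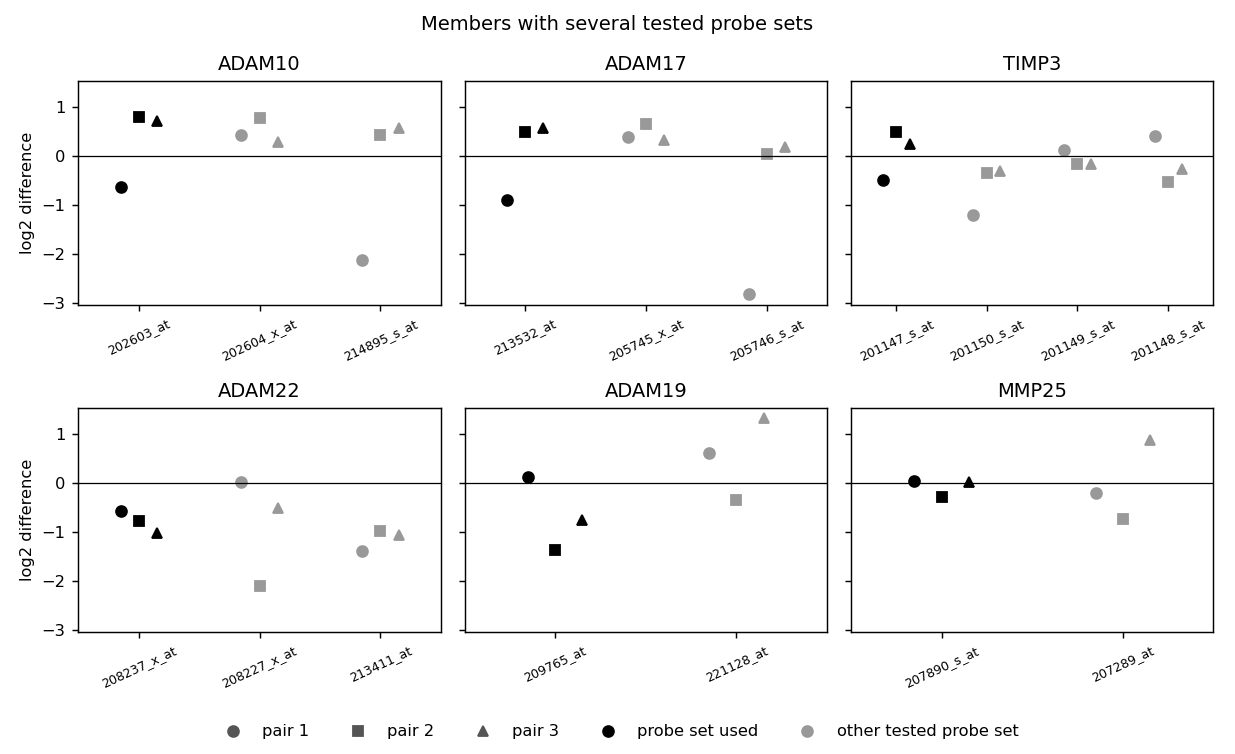
Log2 difference (8-Br-cAMP minus control, vertical axis) in each same-numbered pair for the 6 members with several tested probe sets, with the probe set used in black and the others in grey. In ADAM10 and ADAM17 the probe sets part in pair 1, from -2.12 to 0.43 and from -2.83 to 0.38, and lie close together in pairs 2 and 3.

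Of the 10 tested ADAM genes none passed the paired fit, and 8 had a negative difference. The median of the 10 was -0.26, beside -0.14 over all genes. A common median raised every difference by the same amount, and ADAM9, ADAM20 and ADAM23, among the 8, then turned positive. ADAM22, which encodes a neuronal surface receptor without proteinase activity, had signals of 115, 140.1 and 155.6 in controls and 77.2, 82.4 and 76.3 after 8-Br-cAMP. The groups did not overlap, and the pairs differed by -0.58, -0.77 and -1.03. The difference was -0.79 (95% interval -1.42 to -0.15, limma adjusted p = 0.331 without a block and 0.166 paired), and it was -0.90 with both arrays numbered 1 left out (adjusted p = 0.0191). Its other 2 tested probe sets differed by -0.87 and -1.15. ADAM21 differed by -0.71 (95% interval -1.59 to 0.16, limma adjusted p = 0.556), with signals of 115.6, 84.9 and 72.7 in controls and 73.6, 41.4 and 53.2 after 8-Br-cAMP.

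ADAM19, whose product can process neuregulins, had signals of 96.2, 86.5 and 43.7 in controls and 104.5, 33.5 and 25.9 after 8-Br-cAMP. The difference was -0.67 (95% interval -2.12 to 0.79, limma adjusted p = 0.778), and its other tested probe set differed by 0.53, so the gene has no settled direction. ADAM15 had signals of 136.1, 130.1 and 110.1 in controls and 139.8, 82.8 and 86.2 after 8-Br-cAMP. Its difference was -0.32 (95% interval -1.06 to 0.41, limma adjusted p = 0.790).

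ADAMTS3, whose product trims procollagen and takes part in VEGFC activation, had the most negative difference of the 4 tested ADAMTS genes. Its signal was 483.2, 241.1 and 156.8 in controls and 243.3, 85.4 and 102.9 after 8-Br-cAMP. Number 1 was the highest array of each group, so the groups overlapped although every pair was lower, by -0.99, -1.50 and -0.61. The difference was -1.03 (95% interval -2.31 to 0.24, limma adjusted p = 0.560 without a block and 0.0855 paired), and -1.05 with both arrays numbered 1 left out (adjusted p = 0.0171). ADAMTS9, whose product cuts proteoglycans, had signals of 197.2, 105.6 and 81.5 in controls and 144.2, 98.6 and 87.6 after 8-Br-cAMP. Its difference was -0.15 (95% interval -1.10 to 0.81, limma adjusted p = 0.937), and it turned to 0.08 with quantile normalization or a common median. ADAMTS1 was below the filter level, with signals of 2.1 to 12.5.

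**Figure D4:**
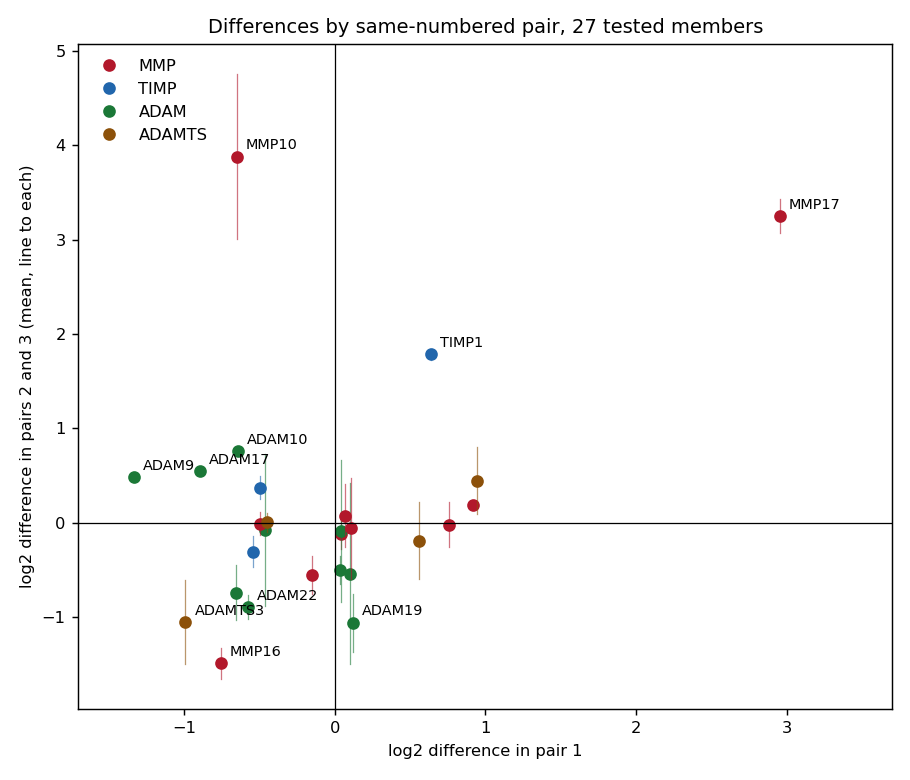
Log2 difference in pair 1 (horizontal axis) against the mean of pairs 2 and 3 (vertical axis) for the 27 tested members, each vertical line running from pair 2 to pair 3. MMP17 lies high on both axes, MMP10 lies at -0.65 in pair 1 and at 3.00 and 4.75 in pairs 2 and 3, and ADAM9, ADAM10 and ADAM17 lie below 0 in pair 1 and above 0 in pairs 2 and 3.

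The remaining 9 tested members were MMP7, MMP11, MMP19, MMP25, ADAM8, ADAM20, ADAM23, ADAMTS12 and ADAMTS13. Their differences lay between -0.33 and 0.61, and none passed, with limma adjusted p of at least 0.682 without a block, 0.343 paired and 0.370 with both arrays numbered 1 left out. Of all 27 tested members 10 had the same sign in all 3 pairs (37.0%), beside 44.7% of all genes. The 8-Br-cAMP 1 array was the highest of its group for 19 of 27 members (70.4%), beside 52.5% of all genes. It was the lowest for 6 members (22.2%), beside 40.5% of all genes, and ADAM9, ADAM10, ADAM17 and MMP10 were among these 6.

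The 25 members left out by the filter had signals between 0.6 and 93.4. They were 11 MMP, 7 ADAM, 6 ADAMTS and 1 TIMP genes, and 12 of them exceeded the filter level on at least 1 array, though none on all 3 arrays of a group. With no filter, 0 of the 25 passed with or without the block.

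Around the enzymes, 5 lists of 86 related genes were read in the same fits, of which 75 were on the array with a single symbol and 37 were tested. Of the 37, 2 rose and 1 fell in the paired fit (8.11%, beside 3.68% of all genes), 34 did not pass, and none passed without a block. Among the 4 tested genes of plasminogen activation, which produces an activator of MMP precursors, 1 rose. It was SERPINE2, an inhibitor of plasminogen activators and thrombin, with signals of 51.9, 121.8 and 62.9 in controls and 166.6, 900.4 and 904.4 after 8-Br-cAMP. All 8-Br-cAMP arrays were above all controls, and the difference was 2.81 (limma paired adjusted p = 0.0246). PLAU and PLAT, the plasminogen activator genes, were below the filter level.

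Among 13 tested genes of sheddase regulators and substrates 1 rose and 12 did not pass. It was IL6R, whose product can be released from the cell by ADAM10 and ADAM17. Its signals were 781.7, 114 and 112.9 in controls and 1841.9, 1232.7 and 1167 after 8-Br-cAMP, and control 1 was the highest control. The difference was 2.68 (limma paired adjusted p = 0.0335), at 1.24 in pair 1 and 3.44 and 3.37 in pairs 2 and 3. Of the 12 that did not pass, RHBDF1 was closest to the threshold (-2.305, limma paired adjusted p = 0.0513). Its 8-Br-cAMP signals were all below the filter level. Among 8 tested proteoglycan and basement membrane genes 1 fell. It was FBLN1, which encodes the matrix protein fibulin 1, with signals of 1231.1, 850.4 and 900.3 in controls and 379.2, 379.5 and 349.9 after 8-Br-cAMP. The groups did not overlap, and the difference was -1.41 (limma paired adjusted p = 0.0258). The calls of SERPINE2, IL6R and FBLN1 were lost with a common median (limma paired adjusted p = 0.0574, 0.0755 and 0.0946) and without an intensity trend (0.0647, 0.0775 and 0.0660), and that of FBLN1 also with pair 3 left out (0.0538).

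None of the 10 tested genes of MMP activation and restraint, such as FURIN, RECK and BSG, passed the paired fit. Closest to the threshold among the 10 were SPOCK1 (-1.09, limma paired adjusted p = 0.0523) and PCOLCE (-1.26, limma paired adjusted p = 0.0803). BMP1 and PAPPA2, the 2 tested genes of other metalloproteinases and ADAMTS-like proteins, did not pass either. The list medians were 1.08 for plasminogen activation, 0.15 for MMP activation and restraint, -0.63 for sheddase regulators and substrates, -0.04 for proteoglycans and basement membrane, and -0.83 for the other metalloproteinases, beside -0.14 over all genes. The 1.08 is the median of 4 genes that went both ways (PLAUR -0.89, F12 -0.10, SERPINB8 2.255 and SERPINE2 2.81). The -0.83 is that of 2 genes, so neither describes a pathway. With both arrays numbered 1 left out 7 of the 37 were called higher and 10 lower (45.9% in all, beside 33.3% of all genes, with 18.9% higher and 27.0% lower beside 12.8% and 20.5%).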

How the data were processed

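The authors deposited linear signal intensities for every probe set on each array, from GCOS 1.3 according to the submitters' processing notes. The 2% trimmed means of the 6 columns were 249.996 to 250.155, so the intensities were not normalized further. Detection calls were not used here. Of 22277 probe sets, 62 array controls were set aside. Of the other 22215, 19064 carry 1 symbol in GEO's platform annotation, 1043 several, and 2108 are not listed. All 52 member gene IDs matched the current RefSeq gene table, with 0 symbols changed.

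Intensities were taken to log2, with no pseudocount. Probe sets above the 40th percentile of mean log2 signal (13329) were tested with limma 3.58.1 in R 4.3.3 (lmFit, eBayes with an intensity trend), two-sided, with Benjamini-Hochberg adjustment over all of them and a threshold of 0.05. The design had no block, and a replicate block by sample number was tried beside it. Same-numbered arrays deviated together from their group means (r = 0.603, 0.378 and 0.538, all over 0.1), which is why the arrays were treated as pairs. No label gives this pairing, and control 3 correlated slightly better with 8-Br-cAMP 2 (0.547). Control 2 with 8-Br-cAMP 3 was over 0.1 as well (0.312). The check thus sets the arrays numbered 1 apart but cannot tell how numbers 2 and 3 pair, and the paired calls rest on the numbering there. The code of the fits was checked on simulated data with a replicate effect and, for each probe set, the same noise on every array. That check does not cover unequal RNA quality between arrays or a wrong pairing.

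Members and lists were chosen with earlier results of these data known. Members are given with values by this rule: those passing either fit, the 8 largest absolute differences, the 10 highest mean signals, and MMP2, MMP9, MMP14, ADAM10, ADAM17, ADAMTS1 and the TIMPs. On the lists these are the genes passing either fit, at most 3 per list. MMP7, MMP1 and other genes named outside it were picked with their values in view. Alternatives were normalization, filter, floor, pseudocount, intensity trend, probe sets averaged per gene, and arrays left out, without and with the block.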

Additional observations from a re-analysis of the deposited data

How the results depend on the processing

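Scaling moved the median difference of all tested probe sets from -0.13 as deposited to -0.03 with quantile normalization and 0.09 with a common median, and the paired calls from 207 higher and 221 lower to 103 and 39 with a common median. The median difference of the members moved by less than its SD over the 3 pairs (0.26) in every alternative run, but it too turned positive with a common median. Without a block, limma called 0 probe sets, 0 members and 0 list genes as set, with 1474 probe sets at an unadjusted p under 0.05. Quantile normalization and a common median each gave 17 probe sets and 1 member, the 60th percentile filter 18 probe sets, and a floor at the 20th percentile and a pseudocount of 16 each 26 probe sets and 1 member. The single member was MMP17 in each case. Leaving out 1 array gave 0 to 285 probe sets, 0 to 2 members and 0 to 2 list genes, and calls above 0 arose only without control 1 or without 8-Br-cAMP 1. Both arrays numbered 1 left out gave 4103 probe sets, 9 members and 17 list genes. The 2-fold selection at an unadjusted p under 0.05 gave 880 probe sets and 3 members.

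The replicate block gave 428 probe sets, 2 members and 3 list genes. Combined with it, the counts in this order were 337, 1 and 4 with quantile normalization, 142, 1 and 0 with a common median, 406, 2 and 3 with no filter, 440, 1 and 4 with the 60th percentile filter (where MMP17 was no longer tested), 473, 2 and 4 with the floor, 521, 2 and 6 with the pseudocount, and 81, 1 and 0 without an intensity trend. With the block and pair 1 left out they were 4680, 10 and 20, and without pair 2 they were 342, 1 and 4. The paired fit called 3.21% of probe sets with all pairs, 35.1% without pair 1, 2.57% without pair 2 and 2.21% without pair 3, and without pair 3 it called 1 member and 4 list genes. SERPINE2, IL6R and FBLN1 each passed in 5 of 7 alternatives with the block. With all 3 pairs the block changed no call of the other members described one by one. With pair 1 left out it added TIMP3 (adjusted p = 0.0487, against 0.0890 without a block).

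Some small differences changed sign, and the cause was not tested. With 1 array left out and, after the slash, 1 pair left out, ADAM17 ran from -0.41 to 1.00 / -0.19 to 0.54, ADAM9 from -0.49 to 0.55 / -0.45 to 0.48, ADAMTS9 from -0.42 to 0.21 / -0.28 to 0.0026, MMP14 from -0.034 to 0.22 / -0.095 to 0.24, MMP2 from -0.013 to 0.40 / -0.021 to 0.49, TIMP3 from -0.27 to 0.61 / -0.13 to 0.37, and TIMP2 from -0.78 to 0.082 with 1 array left out. With both arrays numbered 1 left out ADAM9 was 0.48, ADAMTS9 0.0026 and MMP2 -0.021. A common median gave 0.10 for ADAM9 and 0.077 for ADAMTS9, quantile normalization 0.079 for ADAMTS9, and averaged probe sets -0.11 for ADAM17 and -0.18 for TIMP3. Signals near the filter level limit the folds of MMP17, MMP10 and MMP16.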
